A study of Mus musculus with 57 samples.

Results

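The genes described here were the hexose transporters Slc2a5 (GLUT5), Slc2a1 (GLUT1), Slc2a3 (GLUT3), Slc2a4 (GLUT4) and Slc2a8 (GLUT8), with the fructose enzyme Khk, 6 genes of the 52853 in the count tables. They were found by gene symbol. Slc2a5 was selected on its measured counts, which were very much higher in mutant than in wild-type inguinal fat on chow, so its values in that comparison are a description and carry no test. RNA sequencing of adipose tissue was done in 41 mouse and tissue columns, from male mice on a C57BL/6J background that were either wild-type (WT) or homozygous for the R707W substitution in Mfn2 (knock-in, KI), a mitofusin that fuses mitochondrial outer membranes. The KI colony came from a single founder, and its allele also carries a silent change that makes an EcoRV site and a further silent change upstream. From the age of 5 weeks the mice ate chow or a high-fat diet (HFD, 45% of energy as fat) for 6 months. The 6 groups were inguinal white adipose tissue (WAT) on HFD (8 WT, 8 KI), inguinal WAT on chow (7 WT, 6 KI) and brown adipose tissue (BAT) on HFD (6 WT, 6 KI). The sources do not say if the 2 HFD depots were taken from shared animals. Each column is called a mouse below, so there may be fewer animals than columns. The main comparisons between depots took the columns as independent animals. Each tissue and diet came in a count table of its own, so effects of tissue or diet cannot be told apart from those of the set of libraries. In bulk tissue, fewer cells of a type and less RNA per cell cannot be told apart either.

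Hexoses cross cell membranes down their concentration gradient through GLUT proteins. GLUT4 is the insulin-responsive transporter of fat and muscle, which moves from internal vesicles to the cell surface, whereas GLUT1 and GLUT3 serve basal glucose uptake and GLUT8 is mostly intracellular. GLUT5 carries fructose and hardly any glucose, and is best known from the small intestine. Inside the cell, ketohexokinase (Khk) phosphorylates fructose, the first step of its breakdown.

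Counted reads per mouse ranged from 17572752 to 25680411 in inguinal WAT on HFD, from 8668279 to 11720458 on chow and from 8042591 to 10522554 in BAT. The tissue labels held. The summed level of 7 brown adipocyte markers was 12169 to 22300 CPM (counts per 1000000 reads) in BAT and at most 856 CPM in inguinal WAT, and the 7 adipocyte markers summed to at least 18066 CPM in every mouse. Some libraries stood apart in markers of other cell types. In inguinal WAT on chow, KI mouse 4 had 62422 CPM of 9 skeletal muscle markers against 129 to 363 CPM in the other KI mice, and WT mouse 4 had 3467 CPM of 9 lymphocyte markers against at most 661 CPM in the other WT mice. Chow-fed KI mouse 3 had 1146 CPM of the lymphocyte markers, against 137 to 467 CPM in the other KI mice. On HFD, the highest lymphocyte sums were those of WT mouse 2 (1802 CPM) and KI mouse 2 (1229 CPM, other KI mice at most 174 CPM), and KI mice 3 and 5 had the most muscle RNA (4329 and 2508 CPM). In BAT, WT mice 1 and 2 had 3189 and 3519 CPM of muscle markers, against at most 162 CPM in the other WT mice. BAT KI mouse 6 had 979 CPM of them, against at most 241 CPM in the other KI mice. The edited gene, Mfn2, differed between KI and WT by 0.34 (standard error 0.09, adjusted p = 0.0114), 0.36 (0.12, 0.0840) and 0.29 (0.11, 0.113) on the log2 scale in HFD-fed and chow-fed inguinal WAT and in BAT, and a count per gene does not check the substitution itself.

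Read per length, GLUT4 was by far the most abundant transporter in each of the 6 groups. Its mean ran from 33.9 ± 2.61 RPKM (counts per kilobase of gene length scaled as CPM, SD, n = 8) in WT inguinal WAT on HFD to 112 ± 25.2 RPKM (n = 6) in KI BAT. By group mean, Slc2a8 came next in 5 of the 6 groups, in all but chow-fed KI mice, with 7.57 to 10.9 RPKM. Slc2a1 had 4.27 to 4.93 RPKM and Slc2a3 0.533 to 1.55 RPKM. As a ratio, Slc2a5 spanned the widest range of group means among the 5 transporters, from 0.0507 RPKM in WT inguinal WAT on HFD to 14.4 ± 16.6 RPKM (n = 6) in KI inguinal WAT on chow. Of the summed RPKM of the 5 transporters in a mouse, Slc2a5 made up 4.08% to 27.8% in that last group, and at most 0.229% in chow-fed WT mice. Its median share in that last group, 8.73%, was below that of Slc2a8, 10.1%, though its mean RPKM was higher. Khk had group means of 6.49 to 20.8 RPKM.

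**Figure D1:**
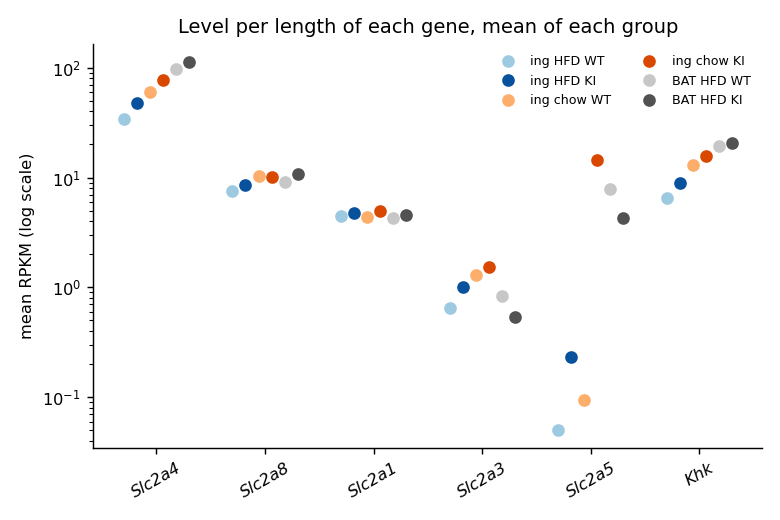
Mean RPKM, on a log scale, of each gene in the 6 groups of mice (ing, inguinal WAT). Slc2a4 lies highest in every group, and Slc2a5 runs from 0.0507 to 14.4 RPKM.

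Slc2a5 (ENSMUSG00000028976, GRCm38 chromosome 4, 150119283 to 150144169, forward strand) overlaps no other gene in the annotation of the tables. The RefSeq promoter table holds 4 of the 6 genes, Slc2a5, Slc2a1, Slc2a8 and Khk (build GRCm38.p6, 300 bases each). The stretch before the start of Slc2a5 is shown because it carries 3 matches to the GC box GGGCGG, in capitals on the opposite strand, with neither the E-box CACGTG nor TGATGNAA, the letters of a C/EBP-ATF response element, in the 300 bases. The Khk stretch is shown because it holds the only CACGTG among the 4 promoters, a motif that forms part of carbohydrate response elements. This motif lies before the RefSeq start of Khk (offset -71) but inside the gene as annotated for the counts, which begins at 30921431. Both stretches are given on the forward strand.
Slc2a5, chr4:150119094-150119282: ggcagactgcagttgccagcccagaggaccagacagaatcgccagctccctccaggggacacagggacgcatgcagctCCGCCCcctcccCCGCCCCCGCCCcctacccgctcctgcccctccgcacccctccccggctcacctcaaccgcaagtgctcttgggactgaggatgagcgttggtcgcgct
Khk, chr5:30921476-30921505: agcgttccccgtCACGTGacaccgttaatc
Searched on both strands over 300 bases, GGGCGG was present in 35.7% of 32851 promoters, CACGTG in 7.15% and TGATGNAA in 3.97%. A match says only that these letters are there, and the motifs do not overlap one another. The Slc2a1 promoter held 2 GC boxes, that of Khk 1 and that of Slc2a8 none, and no other searched motif was found in Slc2a1 or Slc2a8.

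In chow-fed inguinal WAT, Slc2a5 was near the limit of detection in WT mice and abundant in KI mice, which is the contrast that chose it. The 7 WT mice had 0.0938, 0.150, 0.172, 0.216, 0.230, 0.659 and 0.728 CPM, which are 1 to 8 counts each. The 6 KI mice had 10.4, 20.4, 26.8, 31.3, 42.7 and 162 CPM, or 130 to 1632 counts. The groups did not overlap, as was so with KI higher for 2.75% of the genes tested, and the lowest KI mouse lay far above the highest WT mouse. The mean was 48.9 ± 56.4 CPM (SD, n = 6) in KI and 0.322 ± 0.259 CPM (n = 7) in WT mice, a 152-fold ratio of means and a 134-fold ratio of medians, with a fitted log2 fold change of 7.21 (standard error 0.77). The KI mice spanned a 15.5-fold range, and without mouse 1, the highest, their mean was 26.3 ± 12.04 CPM (n = 5) and the ratio of means 81.8. The KI mouse with the most muscle RNA, mouse 4, had 26.8 CPM of Slc2a5, inside the range of the others. The summed level of the brown adipocyte markers was also higher in KI mice, 151 to 856 CPM against 41.02 to 123 CPM in WT mice. Of the 7 markers 4 were tested, and 3 of these had positive log2 fold changes. The 2 called, both higher, were Cidea (log2 fold change 3.02) and Cox8b (2.41), where 3.23% of all genes tested were called. Cidea was called in 4 and Cox8b in 13 of 13 fits that left out 1 mouse. Ucp1, the defining uncoupling protein, had at most 9 counts in any of these mice. KI mouse 1 was highest and KI mouse 5 lowest in both the marker sum and Slc2a5. Their part in the result was not tested.

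Slc2a5 was also higher in KI than in WT inguinal WAT on HFD, in mice that did not enter its choice, though at a level close to the detection limit. The 8 WT mice had 0 to 0.297 CPM, median 0.195 CPM, and the 8 KI mice had 0.344 to 1.42 CPM, median 0.726 CPM, or 0 to 9 and 8 to 33 counts per mouse. The genotypes did not overlap. Among the genes tested in this comparison, 2.09% had groups that did not overlap with KI higher. The ratio of means was 4.55, and mean log2 CPM differed by 2.27 with a prior count of 0.5 and by 1.75 with a prior count of 2 (p = 0.000155 for both, 2-sided exact permutation test, the smallest p that 12870 divisions of the mice can give). The gene was below the low-count filter and hence not in the edgeR fit of this comparison. Without the filter its log2 fold change was 2.13 (adjusted p = 0.00183, edgeR), but in 1 fit of all 6 groups it was 2.06 with an adjusted p of 0.125. The brown adipocyte marker sum was 28.4 to 62.7 CPM in KI and 15.0 to 33.4 CPM in WT mice here, again higher in KI though with overlap. All 4 of the 7 markers tested had positive log2 fold changes. The 2 called, both higher, were Cidea (1.55) and Cox8b (1.04), where 11.5% of all genes tested were called. Cidea kept its call in 16 and Cox8b in 5 of 16 fits that left out 1 mouse. Their part was not tested.

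In BAT, Slc2a5 was present in both genotypes and varied more between mice than between genotypes. The 6 WT mice had 0.661, 2.70, 2.89, 12.3, 37.9 and 105 CPM, a 159-fold range, and the 6 KI mice had 2.91, 8.98, 9.05, 16.02, 20.3 and 30.1 CPM. All 6 KI mice lay within the WT range. The log2 fold change of KI over WT was -0.92 (standard error 1.01, adjusted p = 0.619, edgeR) and its direction rested on WT mouse 5, without which it was 0.36. Medians pointed the other way from means, with KI 1.65 times WT. The WT mice with the most muscle RNA, 1 and 2, were among the 3 lowest in Slc2a5.

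**Figure D2:**
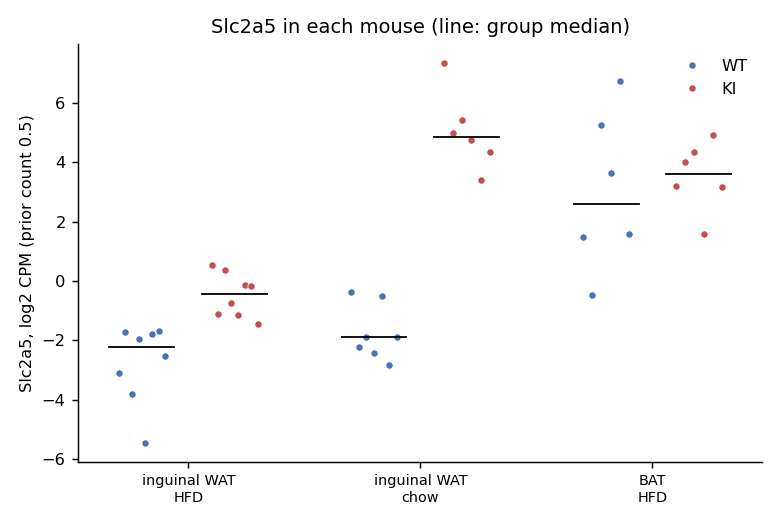
Slc2a5 in each of 41 mice as log2 CPM (prior count 0.5), by tissue, diet and genotype, with a line at the group median. KI mice lie above all WT mice in inguinal WAT on both diets, and the genotypes overlap in BAT.

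Between depots on HFD, Slc2a5 was higher in BAT than in inguinal WAT in both genotypes. The fitted log2 difference was 7.17 (standard error 1.12) in WT and 4.19 (0.46) in KI mice. The gene passed the low-count filter here only through BAT, where it is high, so these are given as a description with no test. Within each genotype the depots did not overlap, as held with BAT higher for 20.7% of genes in WT and 21.3% in KI mice. The difference of the KI effect between the tissues was -2.97 (standard error 1.16), likewise a description with no test. Ordered by mean CPM, the groups ran from KI inguinal WAT on chow (48.9) through WT BAT (26.9) and KI BAT (14.6) to KI inguinal WAT on HFD (0.785), WT on chow (0.322) and WT on HFD (0.173). Only between KI BAT and KI inguinal WAT on HFD did neighbours in this order not overlap. In KI mice the ratio of mean Slc2a5 on chow over HFD was 62.3, and 33.5 without chow-fed KI mouse 1, and in WT mice it was 1.86. The ratios of medians were 40.0 and 1.11. These ratios use the chow values and are not tested.

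Slc2a4, the GLUT4 gene (ENSMUSG00000018566, chromosome 11, 69942539 to 69948188), was higher in KI than in WT inguinal WAT on HFD. WT mice had 112 to 136 CPM, median 114 CPM, and KI mice 102 to 211 CPM, median 171 CPM. In 7 of the 8 KI mice it was above every WT mouse, and KI mouse 2, the one with the most lymphocyte RNA, was below every WT mouse. Its log2 fold change of 0.50 (standard error 0.10) passed the test (adjusted p = 0.00192, edgeR), and mean log2 CPM differed by 0.47 (p = 0.00218, 2-sided exact permutation test). Without KI mouse 2 and WT mouse 2 it was 0.57 (adjusted p = 6.61e-05), and with 1 fit of all 6 groups it was 0.50 with an adjusted p of 0.0413. Of the 6 genes, 5 were tested in this comparison and 2, Slc2a4 and Khk, were called at an adjusted p below 0.01, both higher, where 11.5% of all genes tested were called and 6.21% were called higher. The lymphocyte marker sum was 441 to 1802 CPM in WT and 91.6 to 174 CPM in the KI mice other than mouse 2. Of its 9 markers, all tested, 1 was called, Ighm, which was lower, where 11.5% of all genes tested were called. The median log2 fold change of the 9 was -0.15, and 1 was positive. The part of these cells was not tested. On chow the Slc2a4 difference was 0.34 (standard error 0.21, adjusted p = 0.338) and in BAT 0.15 (0.19, 0.675). Among the members tested on chow, 5 with Slc2a5 left aside, and in BAT, 6, none was called, against 3.23% and 1.83% of all genes tested. By edgeR, the only one at an unadjusted p below 0.05 was Slc2a3 in BAT (p = 0.0136, adjusted p = 0.103). DESeq2 called none of these in either comparison.

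Khk, ketohexokinase (ENSMUSG00000029162, chromosome 5, 30921431 to 30931248), had 8.38 to 15.1 CPM in WT inguinal WAT on HFD, median 11.7 CPM, and 13.0 to 17.9 CPM in KI mice, median 16.6 CPM. In 5 of 8 KI mice it was above every WT mouse. KI exceeded WT by 0.46 on the log2 scale (standard error 0.11, adjusted p = 0.00478 by edgeR, p = 0.00124 by a 2-sided exact permutation test). The call was near the threshold, and it was lost without WT mouse 1, 2, 3 or 4 or KI mouse 3, 4, 6, 7 or 8, with adjusted p values up to 0.0147 and log2 fold changes of 0.39 to 0.45. On chow the difference was 0.26 (standard error 0.15, adjusted p = 0.300) and in BAT 0.06 (0.14, 0.842).

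Slc2a1, the GLUT1 gene (ENSMUSG00000028645, chromosome 4, 119108711 to 119137983), hardly varied. Its group means ran from 15.0 to 17.3 CPM, each range overlapped with every neighbour's, and its KI minus WT differences were 0.09 (standard error 0.11, adjusted p = 0.610) on HFD, 0.16 (0.16, 0.580) on chow and 0.06 (0.14, 0.841) in BAT. Its order of means was thus not resolved from mouse to mouse. Its overlapping antisense gene Gm12868 had at most 2.57 CPM, and whether counting was strand-specific is not given in the sources used here.

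Slc2a8, the GLUT8 gene (ENSMUSG00000026791, chromosome 2, 32972990 to 32982083), had group means of 24.3 to 34.9 CPM. KI minus WT differences were 0.20 (standard error 0.14, adjusted p = 0.352), -0.05 (0.11, 0.806) and 0.20 (0.11, 0.262) in the HFD, chow and BAT comparisons. The lowest value on chow, 21.9 CPM, was in KI mouse 3, the chow-fed KI mouse with the most lymphocyte RNA. Without that mouse the chow difference was 0.035. In BAT, 5 of 6 KI mice were above every WT mouse, with 27.7 to 43.2 CPM in KI and 23.9 to 31.6 CPM in WT mice, and p = 0.0498 in the exact permutation test, 2-sided and unadjusted.

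Slc2a3, the GLUT3 gene (ENSMUSG00000003153, chromosome 6, 122727809 to 122801640), pointed opposite ways in the depots. In inguinal WAT on HFD it had 3.12 to 8.45 CPM in WT and 4.74 to 15.6 CPM in KI mice, a log2 difference of 0.65 (standard error 0.27, adjusted p = 0.102). The highest in each group was mouse 2, which also had the most lymphocyte RNA, and without KI mouse 2 the difference was 0.37 (without both, 0.55). In BAT it had 4.48 to 10.1 CPM in WT and 2.65 to 5.72 CPM in KI mice, and 5 of 6 KI mice were below every WT mouse, a log2 difference of -0.68 (0.25, 0.103). The difference between the tissues was -1.29 (standard error 0.39, adjusted p = 0.0391, edgeR) and missed the threshold of 0.01. On chow the KI effect was 0.24 (0.22, 0.545).

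**Figure D3:**
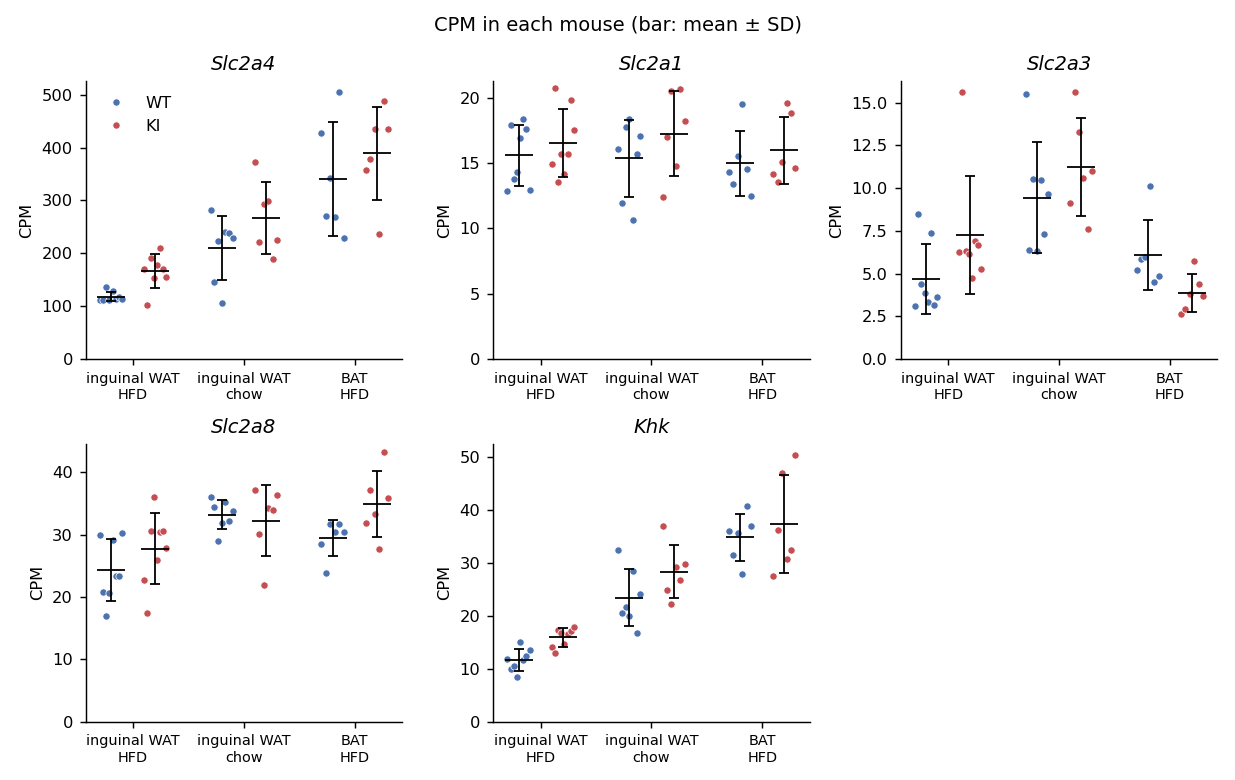
CPM of the other 5 genes in each of 41 mice, by tissue, diet and genotype. Bars are group mean ± SD. Slc2a4 and Khk increase from inguinal WAT on HFD through chow to BAT, whereas Slc2a1 stays near 15 to 17 CPM.

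**Figure D4:**
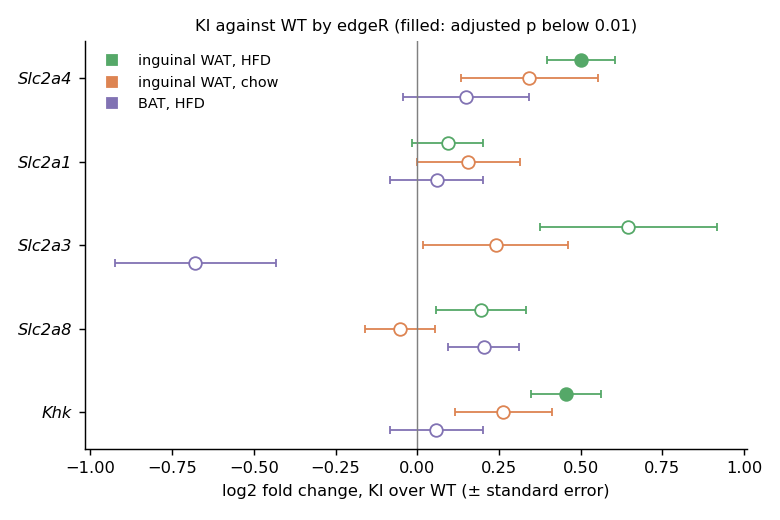
Log2 fold change of KI over WT, ± standard error, for the 5 genes other than Slc2a5 in 3 comparisons, by edgeR. Filled circles are called at an adjusted p below 0.01, which are Slc2a4 and Khk in inguinal WAT on HFD only.

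Both Slc2a4 and Khk were higher in BAT than in inguinal WAT and lower on HFD than on chow. Against inguinal WAT on HFD, BAT was higher by 1.53 (standard error 0.15, adjusted p = 4.26e-08) for Slc2a4 and 1.58 (0.12, 3.10e-09) for Khk in WT mice, and by 1.20 (0.15, 1.64e-06) and 1.20 (0.13, 1.99e-07) in KI mice. With Slc2a5 left aside, these were 2 of 5 tested members called higher in WT, where 27.6% of all genes were, and 2 in KI mice, where 27.9% were, and Slc2a3 was called lower in KI mice (-0.94, 0.27, 0.00535), where 30.5% were. Slc2a1 and Slc2a8 were not called in either genotype. Comparing HFD with chow in inguinal WAT, 4 of the 5 members tested, all but Slc2a1, were called lower in WT, where 15.4% of all genes were, by -1.02 (standard error 0.14, adjusted p = 3.28e-05) for Khk, -0.84 (0.16, 0.000396) for Slc2a4, -1.02 (0.25, 0.00386) for Slc2a3 and -0.46 (0.11, 0.00360) for Slc2a8. In KI mice, with Slc2a5 left aside, 2 were called lower, where 16.5% were, -0.82 (0.11, 1.90e-05) for Khk and -0.68 (0.16, 0.00298) for Slc2a4. Apart from Slc2a5, which was not tested, no member was called for its KI effect between diets (adjusted p of at least 0.537, and 0.632% of all genes called) or between tissues (2.82% of all genes called).

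Of the other 7 members of the Slc2a family, 5 were tested in each inguinal comparison. In both, 1 was called, where 11.5% of all genes tested were on HFD and 3.23% on chow. Slc2a13, which encodes a proton-coupled myo-inositol transporter, fell from 13.3 ± 2.94 to 4.29 ± 1.08 CPM on HFD (SD, n = 8 each; log2 fold change -1.63, adjusted p = 1.61e-06) and from 19.2 ± 6.43 (n = 7) to 4.28 ± 0.679 CPM (n = 6) on chow (-2.16, 0.000128), with no overlap in either. In BAT it had 0.324 to 2.33 CPM and was not tested. It kept its call in each of the 16 and 13 fits that left out 1 mouse. The 5 family members tested in these comparisons all had negative log2 fold changes, with medians of -0.46 on HFD and -0.44 on chow beside 0.01 and -0.01 over all genes tested. Slc2a2 (GLUT2) and Slc2a7, the gene next to Slc2a5, were below the filter with at most 16 and 0 counts in any mouse.

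Of 12 sodium-coupled and other sugar transporters, 6 on each inguinal diet and 5 in BAT were tested and none was called. Over all genes tested, 11.5% were called on HFD, 3.23% on chow and 1.83% in BAT. The lowest unadjusted p values were those of Slc5a3, a myo-inositol transporter, on HFD (log2 fold change 0.30, p = 0.0196), Slc5a10 on chow (0.72, p = 0.0567) and Slc5a2 (SGLT2) in BAT (-0.51, p = 0.00534, adjusted p = 0.0623, edgeR).

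Of the 11 genes of polyol and fructose metabolism, 8 were tested in each comparison. On HFD 1 was called, on chow 1 and in BAT none, where 11.5%, 3.23% and 1.83% of all genes tested were. Glyctk, glycerate kinase, which acts on the glycerate that fructose breakdown yields, fell on HFD from 11.99 ± 5.70 to 2.85 ± 0.572 CPM (SD, n = 8 each; -2.06, adjusted p = 9.58e-06), with no overlap. Aldoa, aldolase A, the form of muscle, rose on chow by 1.73 (adjusted p = 0.00463), but the KI mouse with the most muscle RNA is in that group, and without it and WT mouse 4 the value was 1.27 (adjusted p = 0.00341). That call was lost without WT mouse 1, 2, 3, 5, 6 or 7 or KI mouse 1. Sord and Akr1b3, which make fructose from glucose through sorbitol, were not called, with differences of 0.16 and -0.12 on HFD, -0.14 and 0.13 on chow and 0.16 and 0.45 in BAT. The hexokinases Hk1, Hk2 and Hk3, which phosphorylate glucose after entry, were tested in each comparison and not called, with differences of 0.18, 0.17 and -0.90 on HFD (lowest adjusted p = 0.0285, edgeR), -0.20, 0.67 and -0.84 on chow (0.0187) and 0.28, 0.14 and -0.71 in BAT (0.306).

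Genes of carbohydrate response, which ChREBP (Mlxipl) drives in fat, rose in part in KI inguinal WAT on chow and went both ways on HFD. On chow, 4 of the 11 tested were called, where 3.23% of all genes were, and all 4 were higher, Acly 2.51 (adjusted p = 0.00200), Acaca 2.22 (0.00485), Acacb 1.98 (0.00565) and Elovl6 3.16 (0.00504), and the median of the 11 was 0.95 beside -0.01 over all genes. These genes make fatty acids, from citrate by Acly and by carboxylation and elongation. Acaca lost its call without WT mouse 3, 6 or 7, Acacb without WT mice 2 to 6 or KI mouse 1, 2, 3 or 6 and Elovl6 without WT mouse 1, 2, 3, 4, 6 or 7 or KI mouse 3, whereas Acly kept it in 13 of 13. Without KI mouse 4 and WT mouse 4 together, Acaca (adjusted p = 0.0110), Acacb (0.0153) and Elovl6 (0.0115) were not called. On HFD, only 4 of the 11 had positive log2 fold changes, and 4 were called, where 11.5% of all genes were. Acacb (1.00, 0.000708), Mlxipl (0.54, 0.00448) and Txnip (0.51, 0.000407) rose and Gpd1 fell (-0.51, 0.00950, kept in 4 of 16 fits that left out 1 mouse, and Mlxipl in 10; neither in 1 fit of all 6 groups), with a median of -0.06 beside 0.01. The KI effect of Acly, Elovl6 and Fasn differed between diets (-2.54, -3.56 and -2.89, adjusted p = 0.000945, 0.00151 and 0.00404, edgeR), lower on HFD in each. On HFD, Fasn had 428 ± 204 CPM in KI and 814 ± 301 CPM in WT mice (SD, n = 8 each). Acly had 115 ± 22.8 CPM in KI and 119 ± 26.2 CPM in WT mice on HFD, and neither gene was called there. In BAT none of the 11 was called, and the lowest p was that of Mlxipl (-0.43, adjusted p = 0.0765).

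Of 16 genes of GLUT4 vesicle traffic, all tested, 4 rose in KI inguinal WAT on HFD, where 6.21% of all genes were called higher. They were Myo1c, a motor protein (0.67, adjusted p = 8.17e-06), Trarg1, a protein of GLUT4 vesicles (0.58, 0.00258), and the fusion proteins Vamp2 (0.34, 0.00201) and Stx4a (0.27, 0.00283). The median of the 16 was 0.15 beside 0.01 over all genes. In 1 fit of all 6 groups Stx4a (adjusted p = 0.0834) and Trarg1 (0.0156) were not called, nor was Stx4a without KI mice 3 and 5 (0.0129), and Vamp2 lost its call without KI mouse 6 (0.0103). On chow Trarg1 rose (0.84, 0.00971), a call lost in 11 of 13 fits that left out 1 mouse, and in BAT none was called, with the lowest p in Lrp1 (-0.45, adjusted p = 0.0297).

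Slc2a5 lies 2.21 megabases from the edited gene on chromosome 4. Within 1 megabase of it, 7 of 31 tested neighbours (22.6%) were called on HFD, 6 higher, against 11.5% of all genes, and 4 of 28 (14.3%) on chow, all higher, against 3.23%, and 2 of 26 (7.69%) in BAT, against 1.83%. Slc25a33, a mitochondrial pyrimidine nucleotide carrier, and the antisense gene Gm13068 that overlaps it were called higher in all 3 comparisons. They were the 2 called in BAT, and each count here and between Mfn2 and Slc2a5 takes this overlapping pair as 2 genes. Slc25a33 rose by 1.33 on HFD, by 1.57 on chow and by 1.17 in BAT, and the genotypes did not overlap. Eno1, an enolase, and Rbp7 rose on chow only, by 1.18 and 1.00, though this does not show that they differ from the other comparisons, and on HFD the others were Gm37795, Gpr157, H6pd, Park7 and, lower, Pgd. Between Mfn2 and Slc2a5, 11 of 43 tested genes (25.6%) on HFD, 5 of 38 (13.2%) on chow and 3 of 36 (8.33%) in BAT were called, 10, 5 and 3 of them higher. The genes called there beyond those above were Exosc10, Fbxo6, Gm17029, Mad2l2 and Srm on HFD, Fbxo6 and Srm on chow and Srm in BAT. A part of position in these results was not tested.

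Of 13034 genes above the filter in all 3 tables, those whose log2 CPM was most like that of Slc2a5 over 41 mice were Tkt (Pearson's r = 0.930), Acaca (0.927), Pygl (0.908), Acly (0.907) and 1700037H04Rik (0.891). Tkt encodes transketolase of the pentose phosphate pathway and Pygl glycogen phosphorylase. With group means removed, they were Acly (0.853), Eno1 (0.817), Acaca (0.811), Tkt (0.791) and Fasn (0.779). These were the highest of many, mice of a table share a sequencing depth that differs between tables, and no p applies. Without chow KI mouse 1 and BAT WT mouse 5, the mice farthest in Slc2a5, the first values were 0.871 to 0.915, and without BAT WT mice 5 and 2, the second were 0.672 to 0.764. Within groups, r with Acly was 0.960 in chow-fed KI mice, 0.990 and 0.934 in WT and KI BAT, 0.799 in KI and 0.275 in WT mice on HFD and 0.540 in chow-fed WT mice. In the last 2 groups Slc2a5 was near 0. The Acly mean was 880 ± 695 CPM in KI and 153 ± 37.6 CPM in WT mice on chow. Among the genes most like the others over 41 mice were Slc25a26 and 1700037H04Rik for Slc2a4 (0.923 and 0.922), Dgcr6, Dohh and Egln2 for Khk (0.967, 0.953 and 0.951), Gm19918, Dnal4 and Fzr1 for Slc2a8 (0.852, 0.846 and 0.810), Irf1, Dennd2d and Prodh for Slc2a3 (0.738, 0.724 and 0.715) and Gm12868, Utp15 and Slc7a1 for Slc2a1 (0.639, 0.569 and 0.499).

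**Figure D5:**
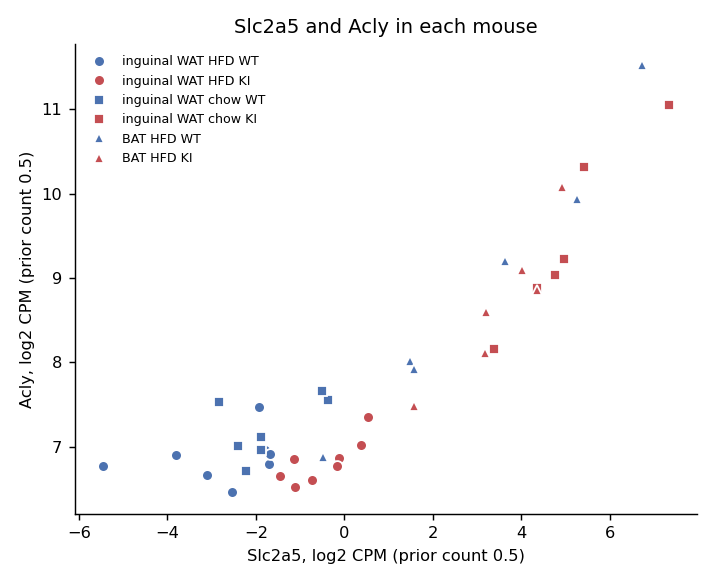
Slc2a5 and Acly in each of 41 mice, both as log2 CPM (prior count 0.5), colored by genotype and shaped by tissue and diet. Mice with high Slc2a5 have high Acly, and at low Slc2a5, in inguinal WAT other than of chow-fed KI mice, Acly stays between 87.8 and 202 CPM.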

How the data were processed

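RNA sequencing libraries were made from poly(A) RNA of 41 mouse and tissue samples, of which those of inguinal WAT on HFD held 2 technical replicates per mouse in 1 column. Per the study's methods, the authors removed adapters (cutadapt), mapped reads to GRCm38 (STAR) and deposited raw counts per gene (featureCounts), and versions and annotation release are not given in the sources used here. The 1884 empty entries were dropped, as were repeats of a symbol, which were identical in their counts. Counts were used as deposited. CPM are over TMM-normalized library sizes of all 41 mice, and RPKM use the gene length column of the tables. Each comparison was fitted alone in edgeR 4.0.16 (R 4.3.3) with TMM, filterByExpr and the robust quasi-likelihood test, and a gene is called at a Benjamini-Hochberg adjusted p below 0.01. Interactions and depot and diet contrasts used the same test. Standard errors are the log2 fold change over the root of its F statistic. The members and gene lists were chosen with earlier results of these data known. Some genes of the members and lists are not reported here. Most genes named from the lists are those called in a KI against WT comparison, or the one with the lowest p where none was called. Sord, Akr1b3, the hexokinases, Fasn, Slc2a2, Slc2a7 and Ucp1 were named outside this rule. Neighbours are those called.

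Each result was recomputed with DESeq2 1.42.0, with RLE scaling, without the filter, at 0.05, in a single fit of the 6 groups, with a replicate block and without each mouse in turn. Fits without most of the libraries that stood apart were added after seeing the data. Chow-fed KI mouse 3 and BAT KI mouse 6 were left out only in turn. The test was checked on simulated data. WT and KI mice were littermates, but which mouse came from which litter is not stated, and p-values measure the spread between these mice. Marker sums are the summed CPM of the listed markers.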

Additional observations from a re-analysis of the deposited data

Results flagged for a closer look

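Of 36 combinations of gene and group, 4 had a mouse whose gap to the nearest other was large for the range of its group. The criterion was Dixon's, applied to CPM and not to log2 CPM. Chance meets it in about 1 of 20 groups where values are normally distributed, which CPM that span many-fold ranges need not be. Slc2a5 was 162 CPM in chow-fed KI mouse 1 (next 42.7 CPM) and 105 CPM in BAT WT mouse 5 (next 37.9 CPM). Slc2a3 was 15.6 CPM in KI mouse 2 on HFD (next 6.93 CPM), the KI mouse with the most lymphocyte RNA, and 10.1 CPM in BAT WT mouse 4 (next 5.94 CPM). Apart from Slc2a5, which was not tested for this, no member was called for a difference of its KI effect between diets or tissues at an adjusted p below 0.01.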

How the results depend on the processing

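Of 496 alternative values of the members, 475 kept their direction and their side of the threshold, and of the others 14 lost a call, 2 gained one and 5 changed sign. With one fit of all 6 groups, Slc2a4 and Khk on HFD were not called (adjusted p = 0.0413 and 0.0136), and the number of genes called for KI against WT was 1242 on HFD, 1088 on chow and 834 in BAT, and with a threshold of 0.05 it was 3448, 1252 and 952, and 500, 1280 and 6831 for the KI effect between diets, between tissues and for HFD against chow in WT mice. DESeq2 called 1116 on chow, 714 in BAT, 408 between diets and 848 between tissues. Leaving out 1 mouse gave 1460 to 2338 on HFD, 288 to 497 on chow and 134 to 313 in BAT. Same-numbered WT and KI mice correlated over 0.1 in 2 of 8 pairs on HFD (-0.33 to 0.64), 1 of 6 on chow and 2 of 6 in BAT, and 3 of 6 pairs of depots did in each genotype, so not every pair did in any comparison and the numbers were not taken as pairing the mice. With the replicate block, 1545, 102 and 363 genes were called on HFD, on chow and in BAT, 180 between tissues, Slc2a3 on HFD was called (0.64, adjusted p = 0.00779) and Slc2a3 between depots in KI mice was not (-0.93, adjusted p = 0.0149), and no other call on members changed. Of the list genes called and named, Gpd1 and Stx4a on HFD and all but Slc2a13 on chow were not called with the block. Without 1 mouse at a time, the difference was -0.088 to 0.035 for Slc2a8 on chow (0.035 without KI mouse 3) and, in BAT, -1.25 to 0.36 for Slc2a5 (0.36 without WT mouse 5), -0.021 to 0.15 for Slc2a1 (-0.021 without KI mouse 4) and -0.027 to 0.13 for Khk (-0.027 without KI mouse 6), so the sign changed in these, and between tissues that of Slc2a1 was -0.0093 without the filter. At the depth of inguinal WAT on HFD Slc2a5 had 0 to 33 counts, so its difference was near the detection limit, and the causes of the changes above were not tested.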
